A study of Mus musculus with 9 samples.

Results

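Ectonucleotidases are enzymes of the cell surface that take phosphate groups off nucleotides outside the cell. The group examined here comprised 9 mouse genes, chosen by name: Nt5e, Entpd1, Entpd2, Enpp1, Alpl, Ada, Adora1, Adora2b and Slc29a1. All 9 were found among the 54986 genes in the files. They were chosen with earlier values of these same libraries in view, so their levels and differences are given as a description. No p-value of any of them is given, and how many were called is stated only beside the share of all genes called, as part of that description. RNA had been sequenced from primary embryonic fibroblasts of C57BL/6 mice in 9 libraries, 3 with overexpression of Zscan4f, 3 with overexpression of Zscan4f3A and 3 whose titles name no overexpressed gene, called control here. Every group, control included, carries the label D4-OSKM-2ndMEFs, where OSKM stands for the reprogramming factors Oct4, Sox2, Klf4 and Myc, so no group without them was sequenced. Zscan4f is a zinc finger protein with a SCAN domain known from the early mouse embryo, and Zscan4f3A is by its label a variant of it, whose sequence no label gives. The titles of the control libraries name no empty vector. No label says whether replicates were separate cultures, so p-values given for other genes rest on a spread between libraries that may be technical.

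ATP and ADP released from cells are broken down toward AMP by ENTPD1 (CD39), ENTPD2 and ENPP1, which differ in preferred substrate and in products. AMP is cleaved to adenosine by NT5E (CD73). Tissue-nonspecific alkaline phosphatase, encoded by Alpl, removes phosphate from many substrates, AMP and pyrophosphate among them. Adenosine then acts on receptors such as ADORA1 and ADORA2B, enters cells through transporters such as SLC29A1, and is turned into inosine by adenosine deaminase, encoded by Ada. CD73 is widely used as a surface marker of cultured mesenchymal cells, fibroblasts included.

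Levels are given as TPM, a relative transcript abundance corrected for transcript length that adds up to the same total in every library. Zscan4f RNA averaged 564 ± 6.18 TPM in Zscan4f libraries, 772 ± 102 in Zscan4f3A libraries and 0.430 ± 0.488 in control libraries (SD, n = 3 each). The aligned sequence behind the libraries ranged from 3.31 gigabases in Zscan4f3A replicate 3 to 8.395 gigabases in Zscan4f replicate 1. None of the values are read counts, and how many reads stand behind a single value was not given. The mean read depth that was given is low for some genes, at 0.363 to 0.622 for Entpd1 in control libraries and 2.18 to 2.71 in Zscan4f libraries. All 8 fibroblast markers examined passed the filter used for testing, and their summed level was 12118 to 12305 TPM in Zscan4f libraries, 11565 to 11789 in Zscan4f3A libraries and 11435 to 11716 in control libraries. Within that sum, Col1a2 (5050 TPM in Zscan4f libraries, 4260 in control libraries), Dcn (1756 TPM in Zscan4f libraries, 1236 in control libraries) and Pdgfra were higher with Zscan4f by more than the SD of either group. Col1a1 (2449 TPM in Zscan4f libraries, 2759 in control libraries), Vim (2041 TPM in Zscan4f libraries, 2418 in control libraries), Col3a1 and Pdgfrb were lower. In bulk RNA, fewer cells of a type and less RNA per cell cannot be told apart.

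In cells with Zscan4f overexpression, the gene for the AMP-cleaving enzyme CD73 stood far lower than in control, that for the ATP-cleaving enzyme CD39 stood higher, and that for ENPP1 stood lower. Nt5e averaged 2.47 ± 0.42 TPM in Zscan4f libraries against 11.7 ± 1.18 TPM in control libraries, Entpd1 12.8 ± 0.83 against 2.98 ± 0.37, and Enpp1 3.58 ± 0.66 against 7.43 ± 0.24 (SD, n = 3 each). With Zscan4f3A the 3 genes lay nearer to control than to Zscan4f, at 8.83 ± 0.66 TPM for Nt5e, 3.89 ± 0.73 for Entpd1 and 6.67 ± 0.46 for Enpp1 (SD, n = 3). If the authors' coverage is a mean over all exons of a gene joined, which was not stated, full-length coding transcripts could make up at most 9.62% of the Entpd1 level in any library. The promoters of these 3 genes are printed here because their levels set the Zscan4f libraries apart, and Entpd1 is shown at both of its annotated starts. Each is a window of 300 bases from RefSeq (build GRCm38.p6), from 250 before to 50 after the start annotated there, written 5′ to 3′ on the strand of the gene. The Nt5e window begins at 88327359 and so lies inside the gene span given below for its level, which starts at 88327197. Capitals mark matches to the searched motifs in either direction. These were the GC box GGGCGG, the CCAAT box CCAAT, the TATA box TATAAA, the AP-1 site TGANTCA and the core of the hypoxia response element ACGTG.
Nt5e, chr9:88327359-88327658, plus strand: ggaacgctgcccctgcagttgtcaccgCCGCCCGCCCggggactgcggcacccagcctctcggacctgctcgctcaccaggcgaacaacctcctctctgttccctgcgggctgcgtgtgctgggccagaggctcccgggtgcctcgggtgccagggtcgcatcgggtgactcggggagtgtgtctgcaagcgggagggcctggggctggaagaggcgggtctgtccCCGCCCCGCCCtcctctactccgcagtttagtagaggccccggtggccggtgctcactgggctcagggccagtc
Enpp1, chr10:24712110-24712409, minus strand: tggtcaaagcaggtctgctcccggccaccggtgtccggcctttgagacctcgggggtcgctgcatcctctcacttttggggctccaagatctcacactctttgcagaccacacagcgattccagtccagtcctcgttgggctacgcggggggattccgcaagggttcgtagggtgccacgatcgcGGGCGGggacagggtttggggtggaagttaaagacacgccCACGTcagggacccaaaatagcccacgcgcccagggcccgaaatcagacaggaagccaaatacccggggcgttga
Entpd1, upstream start, chr19:40612116-40612415, plus strand: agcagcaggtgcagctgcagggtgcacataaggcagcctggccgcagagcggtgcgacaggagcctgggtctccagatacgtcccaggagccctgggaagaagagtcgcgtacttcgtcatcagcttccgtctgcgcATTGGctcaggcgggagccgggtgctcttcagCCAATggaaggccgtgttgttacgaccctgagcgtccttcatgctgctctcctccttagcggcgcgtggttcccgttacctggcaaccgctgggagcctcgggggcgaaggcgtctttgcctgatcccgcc
Entpd1, downstream start, chr19:40659520-40659819, plus strand: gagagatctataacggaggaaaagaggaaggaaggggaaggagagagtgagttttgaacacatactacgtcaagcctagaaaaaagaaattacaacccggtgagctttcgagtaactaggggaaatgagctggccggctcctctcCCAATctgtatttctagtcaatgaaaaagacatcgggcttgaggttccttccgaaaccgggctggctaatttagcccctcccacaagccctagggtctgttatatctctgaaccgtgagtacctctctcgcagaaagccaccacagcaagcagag

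The Nt5e window held 4 GC boxes, all written as their reverse complement and overlapping in pairs, with 71.0% G or C and 23 CG dinucleotides. The window of Enpp1 held 1 GC box and 1 ACGTG, at 61.7% G or C and 22 CG dinucleotides. Entpd1 had 2 CCAAT boxes on opposite strands at its upstream start (64.0% G or C, 23 CG dinucleotides) and 1 at its downstream start (48.7%, 10 CG dinucleotides). None of the 4 windows held TATAAA or TGANTCA. Over all 32851 promoter windows of the same length, 35.7% held GGGCGG, 37.4% CCAAT, 13.6% TATAAA, 7.8% TGANTCA and 19.6% ACGTG, and the median window had 52.7% G or C and 7 CG dinucleotides. These matches are letters only, and binding by any factor was not measured.

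Of the 9 genes, 7 passed a filter of at least 1 TPM in at least 3 of the 9 libraries, as did 15837 genes in all, and Alpl and Adora1 did not. By limma at an adjusted p under 0.05, 1 of the 7 was called higher and 2 lower in Zscan4f against control, where 18.5% of all genes tested were called, 8.74% higher and 9.71% lower. Against Zscan4f3A the count was again 1 higher and 2 lower with Zscan4f, with a background of 15.1%, of which 7.48% were higher and 7.64% lower. In Zscan4f3A against control 0 of the 7 were called, and the background was 0.0316%, or 5 genes. An unadjusted limma p under 0.05 was reached there by 1 of the 7, beside 8.77% of all genes tested. It was reached by 4 of the 7 in Zscan4f against control (31.1% of all genes tested) and by 4 of the 7 in Zscan4f against Zscan4f3A (29.5%). The groups did not overlap for 4 of the 7 genes in Zscan4f against control (background 38.2%), for 4 of the 7 in Zscan4f against Zscan4f3A (background 34.8%) and for 2 of the 7 in Zscan4f3A against control (background 15.4%). Since the genes were chosen on these values, nothing is read from these counts. The comparisons against control share the control libraries.

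**Figure D1:**
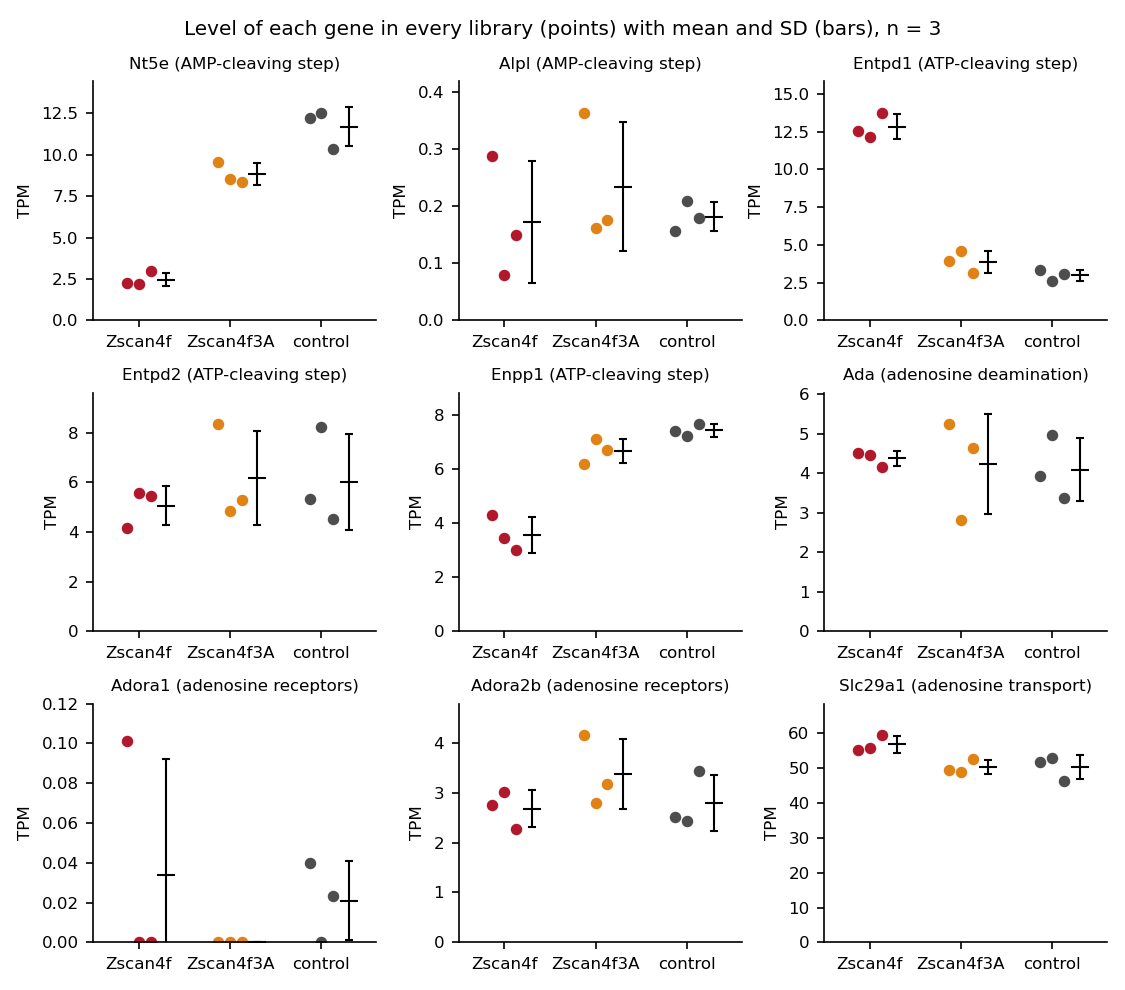
Level in TPM of each of the 9 genes in every library, with Zscan4f, Zscan4f3A and control libraries from left to right, points for libraries and bars for the mean and SD (n = 3). Nt5e and Enpp1 are lower and Entpd1 is higher in all 3 Zscan4f libraries than in all 3 control libraries, while the libraries of the groups overlap for Entpd2, Alpl, Ada, Adora1 and Adora2b.

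The AMP-cleaving enzymes are taken first. Nt5e (ENSMUSG00000032420.8, chromosome 9, 88327197 to 88372092 on the plus strand of GRCm38) had 2.25, 2.20 and 2.96 TPM in the Zscan4f libraries, 9.59, 8.51 and 8.38 TPM in the Zscan4f3A libraries and 12.2, 12.5 and 10.4 TPM in the control libraries. The 3 groups did not overlap, with the Zscan4f libraries lowest by a wide gap and the Zscan4f3A libraries just under control. On the log2(TPM + 1) scale the difference was -1.87 (SE 0.11, 95% interval -2.14 to -1.61) in Zscan4f against control, -1.51 in Zscan4f against Zscan4f3A and -0.37 (-0.63 to -0.11) in Zscan4f3A against control. On the plain scale the control mean was 4.74 times that of Zscan4f. Among the 15837 genes tested, 12 had a more negative log2 fold change than Nt5e in Zscan4f against control.

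Alpl (ENSMUSG00000028766.10, chromosome 4, 137741733 to 137796384, minus strand) was close to 0 throughout. It had 0.288, 0.0798 and 0.149 TPM in Zscan4f libraries, 0.363, 0.162 and 0.176 TPM in Zscan4f3A libraries and 0.157, 0.209 and 0.179 TPM in control libraries, and the 3 groups overlapped. Nt5e thus supplied 88.6% to 96.5% of the summed TPM of both genes in Zscan4f libraries, 96.3% to 98.1% in Zscan4f3A libraries and 98.3% to 98.7% in control libraries.

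Among the ATP-cleaving enzymes, Entpd1 (ENSMUSG00000048120.16, chromosome 19, 40612366 to 40741602, plus strand) had 12.5, 12.2 and 13.7 TPM in the Zscan4f libraries, 3.96, 4.57 and 3.13 TPM in the Zscan4f3A libraries and 3.31, 2.58 and 3.04 TPM in the control libraries. All 3 Zscan4f libraries stood above the other 6, while the Zscan4f3A and control libraries overlapped. The log2 fold change was 1.80 (SE 0.13, 95% interval 1.51 to 2.09) in Zscan4f against control, 1.51 in Zscan4f against Zscan4f3A and 0.29 (-0.00 to 0.58) in Zscan4f3A against control. The Zscan4f mean was 4.30 times the control mean, and 21 genes had a larger positive log2 fold change.

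Enpp1 (ENSMUSG00000037370.13, chromosome 10, 24637914 to 24712159, minus strand), whose enzyme splits ATP into AMP and pyrophosphate, went the other way from Entpd1. It had 4.30, 3.44 and 3.00 TPM in Zscan4f libraries, 6.20, 7.11 and 6.70 TPM in Zscan4f3A libraries and 7.41, 7.21 and 7.68 TPM in control libraries. The Zscan4f libraries were lowest and the groups did not overlap, though Zscan4f3A replicate 2 lay just under the lowest control library. The log2 fold change was -0.89 (SE 0.11, 95% interval -1.15 to -0.63) in Zscan4f against control, -0.75 in Zscan4f against Zscan4f3A and -0.14 (-0.39 to 0.12) in Zscan4f3A against control. On the plain scale the control mean was 2.08 times that of Zscan4f.

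Entpd2 (ENSMUSG00000015085.8, chromosome 2, 25395874 to 25401321, plus strand), whose enzyme prefers ATP over ADP, had 4.16, 5.57 and 5.45 TPM in Zscan4f libraries, 8.36, 4.85 and 5.30 TPM in Zscan4f3A libraries and 5.32, 8.22 and 4.53 TPM in control libraries. The groups overlapped, and 1 library in each of the Zscan4f3A and control groups stood above 8 TPM. The log2 fold change was -0.19 in Zscan4f against control, with a 95% interval of -0.72 to 0.34 that leaves room for a difference in either direction. Entpd2 shares 1971 bases with Npdc1 on the same strand, and Npdc1 averaged 90.4 TPM in Zscan4f libraries, 127 in Zscan4f3A libraries and 115 in control libraries (limma adjusted p = 0.00434 for Zscan4f against control). No label states how shared reads were assigned.

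**Figure D2:**
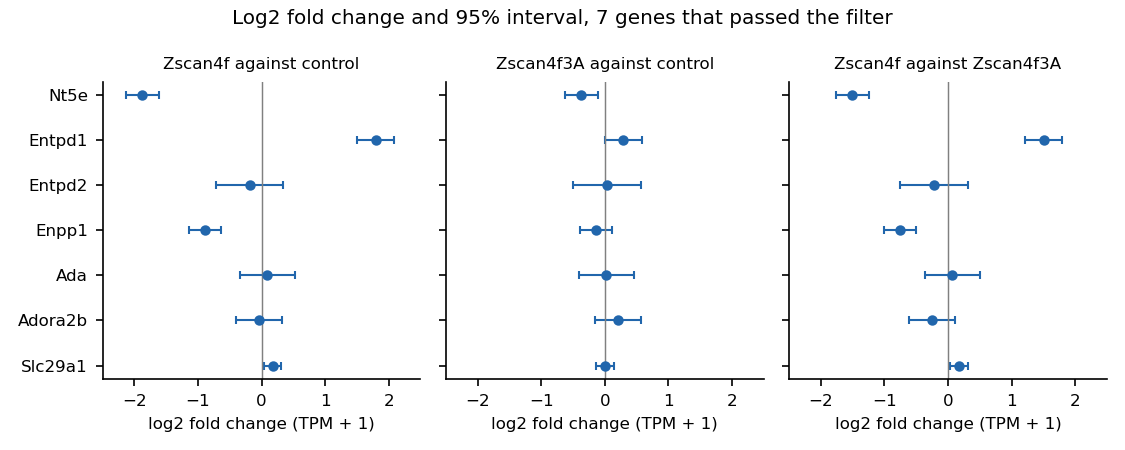
Log2 fold change on the TPM + 1 scale (points) with its 95% interval (bars) for the 7 genes that passed the filter, in each of the 3 comparisons. In Zscan4f against control the point of Entpd1 lies at 1.80 (interval 1.51 to 2.09) and that of Nt5e at -1.87 (-2.14 to -1.61). The genes were chosen with these values known, so the intervals are not read as tests.

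The files also hold FPKM and coverage for each gene, and these bear on what its TPM stands for. The authors' coverage is the mean read depth over a gene. Among 1939 genes with a single annotated transcript, the ratio of coverage to FPKM, divided by the aligned sequence, lay within 0.02 of 1 for 99.9%. The aligned sequence was itself taken as the commonest ratio of coverage to FPKM, so values near 1 were largely built in. Genes with a single transcript also cannot show whether coverage is taken over all exons joined. For a gene with several transcripts the same share fell below 1, and multiplied by the length of all its exons joined it gave a mean transcript length that lay within the annotated range, give or take 5%, for 91.7% of 11256 genes. Read this way, the reported level of Nt5e corresponded to a mean length of 3890 bases, close to its coding transcript of 3995 bases. Enpp1 came to 5849 bases, between its coding transcripts of 2721 and 6777 bases, and Entpd2 to 1927 bases beside a coding transcript of 1935 bases.

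In Entpd1 this length was far shorter. Its coverage was 6.2% (4.6% to 7.5% over the libraries) of that of a single-transcript gene with the same FPKM, and 2.9% of multi-transcript genes had a lower share. For Alpl the same reading gave a share of 8.4%, an implied mean length of 340 bases and at most 7.96% to 7.99% of its TPM from full-length coding transcripts. The mean read depth of Alpl was only 0.0199 to 0.0837 over the libraries, so these values rest on very little sequence and its mix of transcripts is not read from them. For Entpd1 the implied mean length was 344 bases, although its exons joined span 5580 bases. The full-length coding transcripts of Entpd1 have 2409 bases from the upstream start and 4221 bases from the downstream start. Of the 11 annotated transcripts, 6 are processed transcripts of 204 to 628 bases with no coding sequence. Among them are transcripts of 380 and 319 bases, which begin at the upstream start and end at positions 40615718 and 40614145, well before the downstream start at 40659770. Those of 387, 628, 245 and 204 bases begin beyond the downstream start, and short coding transcripts of 473 and 881 bases are also annotated. Which of these carry the level was not determined. The gene AC166063.3 lies inside Entpd1 on the same strand over 522 bases, at 5.20 TPM in Zscan4f libraries, 5.28 in Zscan4f3A libraries and 4.47 in control libraries.

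Given those lengths, full-length coding transcripts could make up at most 4.10% to 7.67% of the Entpd1 TPM in Zscan4f libraries, 5.73% to 9.62% in Zscan4f3A libraries and 2.42% to 8.44% in control libraries. That is at most 0.513 to 0.932 TPM in Zscan4f libraries, 0.262 to 0.373 TPM in Zscan4f3A libraries and 0.0736 to 0.218 TPM in control libraries. These are upper limits that rest on the reading of coverage given above, not measurements of the full-length transcript, and per-transcript values were not analysed here. The coverage of Entpd1 per aligned gigabase was 0.306 ± 0.040 in Zscan4f libraries, 0.105 ± 0.010 in Zscan4f3A libraries and 0.0686 ± 0.013 in control libraries (SD, n = 3 each), 4.46 times as high with Zscan4f as in control. The difference between groups in Entpd1 was thus seen on both scales, while the gene-level Entpd1 values do not by themselves give the level of RNA that encodes the whole enzyme.

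**Figure D3:**
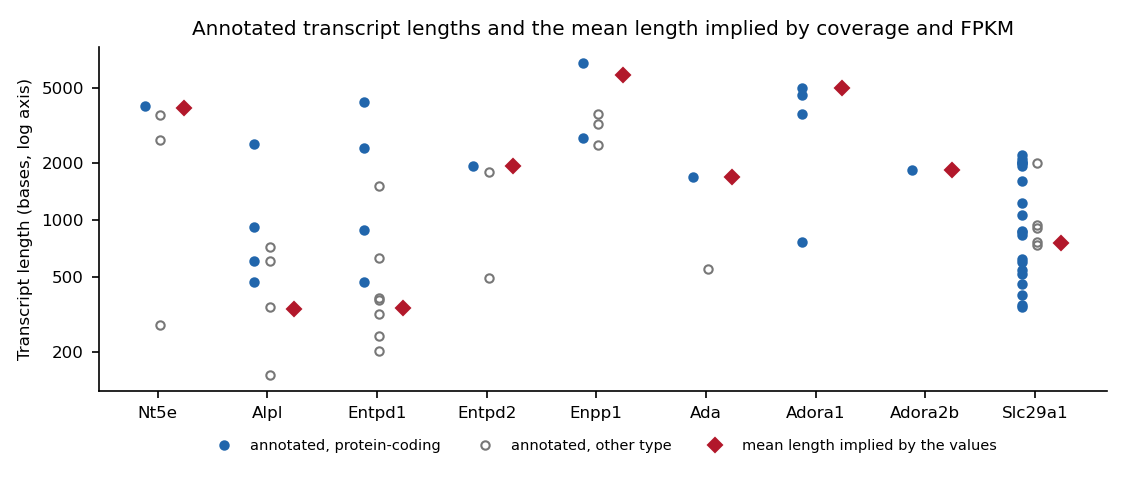
Length in bases (log axis) of each annotated transcript of the 9 genes, filled circles for protein-coding and open circles for other types, with the mean length implied by coverage and FPKM as diamonds. The diamond of Entpd1 lies at 344 bases, far under its coding transcripts of 2409 and 4221 bases, while that of Nt5e lies at 3890 bases beside its coding transcript of 3995 bases.

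The steps were compared by adding the TPM of their genes in each library. For the AMP-cleaving step, Nt5e and Alpl came to 2.64 ± 0.42 TPM in Zscan4f libraries, 9.06 ± 0.77 in Zscan4f3A libraries and 11.9 ± 1.19 in control libraries (SD, n = 3 each). For the ATP-cleaving step, Entpd1, Entpd2 and Enpp1 came to 21.4 ± 0.65 TPM in Zscan4f libraries, 16.7 ± 1.70 in Zscan4f3A libraries and 16.4 ± 1.42 in control libraries. The AMP-cleaving sum divided by the ATP-cleaving sum was 0.121, 0.108 and 0.140 in the Zscan4f libraries, 0.537, 0.524 and 0.566 in the Zscan4f3A libraries and 0.771, 0.708 and 0.690 in the control libraries. The groups did not overlap, with Zscan4f far below the others. The mean log2 of this ratio differed by -2.56 in Zscan4f against control, by -2.15 in Zscan4f against Zscan4f3A and by -0.41 in Zscan4f3A against control.

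The make-up of the ATP-cleaving sum differed more than its size. Entpd1 supplied 59.7% of it in Zscan4f libraries, 23.2% in Zscan4f3A libraries and 18.3% in control libraries, and Enpp1 supplied 16.7% in Zscan4f libraries, 40.3% in Zscan4f3A libraries and 45.5% in control libraries. Without Entpd1 the ATP-cleaving sum was 8.64 ± 0.32 TPM in Zscan4f libraries, 12.8 ± 1.49 in Zscan4f3A libraries and 13.5 ± 1.73 in control libraries, so that the direction in Zscan4f against control turned. By coverage per aligned gigabase, where Entpd1 made up 10.7% of the sum in Zscan4f libraries, 2.90% in Zscan4f3A libraries and 1.81% in control libraries, the ATP-cleaving sum was 2.86 ± 0.34 in Zscan4f libraries, 3.70 ± 0.70 in Zscan4f3A libraries and 3.82 ± 0.63 in control libraries. The direction of the ATP-cleaving sum in Zscan4f against control thus differed between TPM and coverage, and between sums with and without Entpd1.

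The AMP-cleaving sum was lower in Zscan4f libraries on both scales. Without Entpd1 the ratio of the steps was 0.307 ± 0.058 in Zscan4f libraries, 0.707 ± 0.021 in Zscan4f3A libraries and 0.887 ± 0.076 in control libraries, a log2 difference of -1.54 for Zscan4f against control. By coverage the ratio was 0.154 ± 0.025 in Zscan4f libraries, 0.438 ± 0.045 in Zscan4f3A libraries and 0.537 ± 0.082 in control libraries, a log2 difference of -1.80 (SD, n = 3 each). Both alternatives were chosen after the Entpd1 values had been seen. In each of them the 3 Zscan4f libraries lay below all 3 control libraries.

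**Figure D4:**
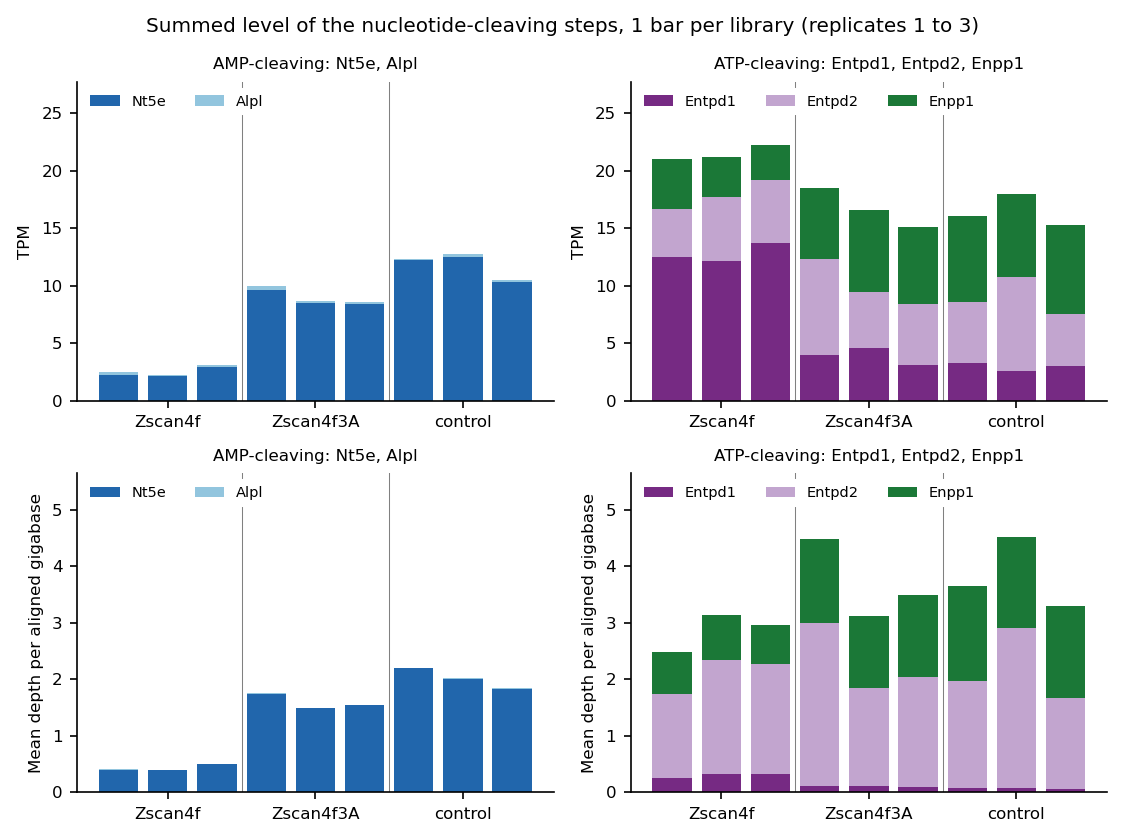
Summed level of the AMP-cleaving genes (left) and the ATP-cleaving genes (right) in each library, as TPM (top) and as coverage per aligned gigabase (bottom), with the genes stacked by colour. The AMP-cleaving sum is lowest in the Zscan4f libraries on both scales, whereas the ATP-cleaving sum is highest there in TPM (21.4 against 16.4 TPM in control) and lowest on average by coverage (2.86 against 3.82 in control).

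Beyond the cleaving enzymes, Ada, Adora2b and Slc29a1 had small log2 fold changes in Zscan4f against control. The intervals of Ada and Adora2b were wide, and other genes that handle adenosine (Adk, Ahcy and Slc29a3, given below) were called. Ada (ENSMUSG00000017697.3, chromosome 2, 163726584 to 163750239, minus strand) had 4.53, 4.47 and 4.17 TPM in Zscan4f libraries, 5.26, 2.82 and 4.65 TPM in Zscan4f3A libraries and 3.92, 4.97 and 3.39 TPM in control libraries. The groups overlapped, and the log2 fold change in Zscan4f against control was 0.09, with a 95% interval of -0.34 to 0.52.

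Of the receptors, Adora2b (ENSMUSG00000018500.2, chromosome 11, 62248984 to 62266453, plus strand), which raises cyclic AMP, had 2.75, 3.01 and 2.27 TPM in Zscan4f libraries, 4.16, 2.80 and 3.17 TPM in Zscan4f3A libraries and 2.51, 2.43 and 3.44 TPM in control libraries. These too overlapped, and the log2 fold change was -0.04 (95% interval -0.40 to 0.32) in Zscan4f against control and 0.20 (-0.16 to 0.57) in Zscan4f3A against control. Adora1 (ENSMUSG00000042429.8, chromosome 1, 134199223 to 134235431, minus strand), which lowers cyclic AMP, was listed at 0 in 6 of the 9 libraries and reached 0.101 TPM at most, in Zscan4f replicate 1.

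Slc29a1 (ENSMUSG00000023942.15, chromosome 17, 45585200 to 45599606, minus strand), the equilibrative nucleoside transporter ENT1, was the most abundant of the 9 genes in every group. It had 55.1, 55.7 and 59.5 TPM in Zscan4f libraries, 49.3, 48.8 and 52.7 TPM in Zscan4f3A libraries and 51.6, 52.8 and 46.3 TPM in control libraries. All 3 Zscan4f libraries were above the other 6, by a small margin: the log2 fold change was 0.17 (95% interval 0.03 to 0.31) in Zscan4f against control. Its implied mean length of 757 bases was short for its 25 annotated transcripts, of which 8 are full length at 1226 to 2216 bases, and these could supply at most 45.1% to 48.0% of the TPM in Zscan4f libraries, 46.2% to 47.9% in Zscan4f3A libraries and 46.6% to 47.7% in control libraries.

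The order of the genes by mean TPM differed between groups. In Zscan4f libraries it ran Slc29a1, Entpd1, Entpd2, Ada, Enpp1, Adora2b, Nt5e, Alpl and Adora1. In control libraries it ran Slc29a1, Nt5e, Enpp1, Entpd2, Ada, Entpd1, Adora2b, Alpl and Adora1. In control, the ranges of neighbours overlapped for Enpp1 and Entpd2, for Entpd2 and Ada, and for Entpd1 and Adora2b. In Zscan4f libraries they overlapped for Entpd2 and Ada, for Ada and Enpp1, for Enpp1 and Adora2b, for Adora2b and Nt5e, and for Alpl and Adora1. Nt5e thus held the place below Slc29a1 in control and the lowest place among the 7 genes past the filter with Zscan4f.

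Markers of other cell types that can carry these enzymes were read beside the results, and their part in them was not tested. Of 8 macrophage markers 4 passed the filter, and their summed level over all 8 was 26.3 to 28.0 TPM in Zscan4f libraries, 18.5 to 20.9 in Zscan4f3A libraries and 18.7 to 21.6 in control libraries, but Adgre1 and Ptprc stayed under 0.1 TPM throughout. Of 8 endothelial markers 4 passed, with sums of 61.1 to 64.6 TPM in Zscan4f libraries, 46.8 to 51.2 in Zscan4f3A libraries and 46.9 to 49.5 in control libraries, and Cdh5 stayed under 0.1 TPM. Both sums were highest in the Zscan4f libraries, as was Entpd1, but their genes did not all differ in 1 direction. In the macrophage list Cd68 averaged 18.7 TPM in Zscan4f libraries and 12.002 in control libraries, and Cd14 averaged 2.497 TPM in Zscan4f libraries and 3.69 in control libraries. In the endothelial list Tek averaged 45.0 TPM in Zscan4f libraries and 30.9 in control libraries and Flt1 14.8 TPM in Zscan4f libraries and 9.39 in control libraries, whereas Erg averaged 1.04 TPM in Zscan4f libraries and 6.44 in control libraries. The 8 epithelial markers all passed. They summed to 207 to 214 TPM in Zscan4f libraries, 88.3 to 96.2 in Zscan4f3A libraries and 79.1 to 80.9 in control libraries. This sum was highest where Nt5e and Enpp1 were lowest, but its genes did not all differ alike. Krt8 averaged 78.5 TPM in Zscan4f libraries and 20.2 in control libraries. Krt14 averaged 85.3 TPM in Zscan4f libraries and 28.5 in control libraries. Cldn3 differed by less than its SD, at 12.6 TPM in Zscan4f libraries and 12.5 in control libraries. Only Krt5 was lower with Zscan4f, at 0.577 TPM in Zscan4f libraries and 1.248 in control libraries. Lymphocyte markers (0 of 7 passed) summed to at most 1.20 TPM, with Cd3e, Ms4a1 and Cd8a under 0.1. Pluripotent cell markers (0 of 8 passed) summed to at most 2.53 TPM, with 5 of the 8 under 0.1. Osteoblast and chondrocyte markers (5 of 8 passed) gave sums that overlapped between all groups, but their genes did not all differ alike. Col2a1, the largest part of the sum, averaged 195 TPM in Zscan4f libraries and 179 in control libraries, and Bglap 35.6 TPM in Zscan4f libraries and 28.4 in control libraries. Col10a1 averaged 12.7 TPM in Zscan4f libraries and 22.8 in control libraries, and Sox9 3.26 TPM in Zscan4f libraries and 4.85 in control libraries.

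The tested genes nearest to each member on either side were read in the same fit. Of these 18 neighbours 6 were called in Zscan4f against control (33.3%, with a background of 18.5%), and the other 12 had an adjusted p of 0.058 to 0.967. Npdc1 beside Entpd2 was one of the 6. Beside Entpd1, Tctn3 lies 132 bases upstream on the other strand and averaged 17.7 ± 1.08 TPM in Zscan4f libraries and 15.0 ± 0.92 in control libraries (limma adjusted p = 0.058), and Ccnj on the other side had an adjusted p of 0.892. Beside Nt5e, Snx14 averaged 44.1 ± 1.51 TPM in Zscan4f libraries and 42.5 ± 4.97 in control libraries (adjusted p = 0.786). Beside Enpp1, Ctgf, a secreted matricellular factor 39230 bases away, fell to 339 ± 8.42 TPM in Zscan4f libraries, against 478 ± 16.9 in control libraries (log2 fold change -0.49, limma adjusted p = 3.73e-05; SD, n = 3 each), and Med23 on the other side had an adjusted p of 0.967. Beside the other members, Ece1 next to Alpl fell to 102 ± 3.53 TPM in Zscan4f libraries, against 137 ± 3.18 in control libraries (adjusted p = 0.00012). Wisp2 next to Ada averaged 23.0 TPM in Zscan4f libraries and 17.9 in control libraries (adjusted p = 0.0173). Next to Adora1, Chit1 averaged 5.39 TPM in Zscan4f libraries and 2.40 in control libraries (adjusted p = 0.00338), and Ppfia4 averaged 12.2 TPM in Zscan4f libraries and 9.23 in control libraries (adjusted p = 0.00961).

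The genes whose levels followed each member most closely over the 9 libraries are given as a description, as Pearson r of log2(TPM + 1) among 10347 genes tested with a mean of at least 5 TPM (10348 where the member's own mean was lower). For Nt5e they were Clstn1 (0.995), Olfml1 (0.994) and Ass1 (0.994), and for Enpp1 they were Mef2c (0.991), Htr1b (0.991) and Igf1 (0.988). Those of Entpd1 were Bcl6b (0.996), Ptgs2 (0.996) and Scara5 (0.993). The 9 libraries form 3 groups, so that any genes which set Zscan4f apart in the same direction reach high values of r. For the other members past the filter the highest values were lower, with Ccdc97 (0.970), Adamtsl4 (0.956) and Sec14l1 (0.950) for Slc29a1 and Mcm3ap (0.934), Abtb2 (0.914) and Bloc1s1 (0.907) for Ada. They were Glod4 (0.927), Osbpl6 (0.880) and Fndc4 (0.865) for Adora2b and Rps15 (0.894), Ssbp1 (0.885) and Stard3 (0.870) for Entpd2.

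Other genes of purine handling were read from 10 lists of 70 genes, of which 69 were in the files and 42 passed the filter. By limma, 7 of the 42 rose and 4 fell in Zscan4f against control (26.2%, with a background of 18.5%), and 13 (31%) had an unadjusted p under 0.05, beside 31.1% of all genes tested. Against Zscan4f3A, 6 were higher and 2 lower with Zscan4f (background 15.1%). In Zscan4f3A against control 0 were called by limma, 3 (7.14%) had an unadjusted p under 0.05 beside 8.77% of all genes tested, and 0 were called under any of the other settings tried.

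Relatives of the members were among those not called. Of the other ENTPD and ENPP genes, 8 were tested and 0 were called, and the only other surface ATP-cleaving enzyme tested, Entpd3, stood at 1.07 ± 0.11 TPM in Zscan4f libraries and 1.16 ± 0.23 in control libraries. The AMP-cleaving phosphatase Acpp stood at 1.91 ± 0.26 TPM in Zscan4f libraries and 2.19 ± 0.064 in control libraries (SD, n = 3 each). Neither of the other adenosine receptors, Adora2a and Adora3, passed the filter.

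Slc17a9, the vesicular nucleotide transporter that loads ATP for release, had the largest fold change of the 42. It had 7.54, 9.62 and 7.89 TPM in Zscan4f libraries, 4.35, 3.67 and 4.38 TPM in Zscan4f3A libraries and 3.99, 3.49 and 2.76 TPM in control libraries. The Zscan4f libraries were highest, and the Zscan4f3A and control libraries overlapped. The log2 fold change was 1.09 (SE 0.13, limma adjusted p = 0.000803) in Zscan4f against control and 0.86 (adjusted p = 0.00346) in Zscan4f against Zscan4f3A. Of the 5 ATP release genes tested, 1 other was called: Calhm2, of a family of large-pore channels, fell to 22.4 ± 0.76 TPM in Zscan4f libraries, against 27.5 ± 1.24 in control libraries (adjusted p = 0.0091).

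Of 18 genes of purine salvage and breakdown inside the cell 14 were tested, and in Zscan4f against control 3 rose, 1 fell and 10 were not called (28.6% called, with a background of 18.5%). Adk, adenosine kinase, which turns adenosine back into AMP, averaged 343 ± 4.04 TPM in Zscan4f libraries and 289 ± 6.32 in control libraries (log2 fold change 0.25, limma adjusted p = 0.00249). Hprt, which salvages hypoxanthine and guanine, averaged 126 ± 1.30 TPM in Zscan4f libraries and 102 ± 3.49 in control libraries (0.30, adjusted p = 0.000774), and Ahcy, which releases adenosine from S-adenosylhomocysteine, 67.6 ± 1.84 TPM in Zscan4f libraries and 57.0 ± 2.40 in control libraries (0.24, adjusted p = 0.00516). Nt5c, a nucleotidase of the cytosol, fell to 87.0 ± 4.12 TPM in Zscan4f libraries, against 104 ± 1.49 in control libraries (-0.26, adjusted p = 0.00559). Adk thus exceeded Ada in TPM in each group, and all 4 were also called in Zscan4f against Zscan4f3A.

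Of 4 genes of pyrophosphate and phosphate handling tested, 2 fell. Ank acts in the export of pyrophosphate from inside the cell. It had 48.5, 50.7 and 48.3 TPM in Zscan4f libraries, 61.6, 60.3 and 57.6 TPM in Zscan4f3A libraries and 65.9, 68.5 and 66.4 TPM in control libraries, with no overlap between any of the groups. The log2 fold change was -0.44 (limma adjusted p = 0.000213) in Zscan4f against control and -0.28 (adjusted p = 0.00305) in Zscan4f against Zscan4f3A. Slc20a2, a phosphate transporter, averaged 49.96 ± 2.25 TPM in Zscan4f libraries and 60.1 ± 1.58 in control libraries (-0.26, adjusted p = 0.0229).

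The other genes called were 1 of 4 P2X receptors, 1 of 3 P2Y receptors and 1 of 2 other nucleoside transporters tested. P2rx4, an ion channel opened by ATP, averaged 61.9 ± 2.70 TPM in Zscan4f libraries and 48.3 ± 1.36 in control libraries (0.35, limma adjusted p = 0.0357). P2ry1, a receptor for ADP, averaged 21.1 ± 3.07 TPM in Zscan4f libraries and 15.4 ± 1.68 in control libraries (0.42, limma adjusted p = 0.0359). Slc29a3, the lysosomal transporter ENT3, averaged 26.4 ± 0.41 TPM in Zscan4f libraries and 23.1 ± 0.52 in control libraries (0.18, limma adjusted p = 0.0224). These calls and that of Slc20a2 were lost in some cases with 1 library left out, and those of P2rx4, P2ry1 and Slc29a3 also under other settings of the fit. Leaving out a library also leaves fewer libraries to test with. Genes called in all went from 2922 to between 2098 and 2302 without 1 Zscan4f or control library. The log2 fold change of P2rx4 stayed at 0.32 to 0.38. With 1 library left out, the call of P2rx4 was lost in 7 of 9 cases, without any one of the 3 Zscan4f and 3 control libraries or without Zscan4f3A replicate 2 (adjusted p 0.0524 to 0.111). That of P2ry1 was lost in 5 cases, without Zscan4f replicate 1 or 2, Zscan4f3A replicate 2 or control replicate 1 or 2 (0.0512 to 0.113). Both Slc29a3 (0.0662 to 0.0738) and Slc20a2 (0.0588 to 0.0814) lost theirs in 4 cases, without Zscan4f replicate 2 or 3 or control replicate 1 or 2. With no filter P2rx4 (adjusted p = 0.087) and P2ry1 (0.0848) lost their calls, as did P2rx4 with no trend (0.0523) and P2ry1 with only the groups compared (0.0554). Against Zscan4f3A, the calls of P2rx4 and P2ry1 were lost in 4 and 6 of the 9 cases, both were lost with no filter (0.0728 and 0.0924) and with only the groups compared (0.0713 and 0.0601), and P2ry1 was lost with no trend (0.0502). The other 7 genes called in Zscan4f against control were called there under each of the 19 alternatives.

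**Figure D5:**
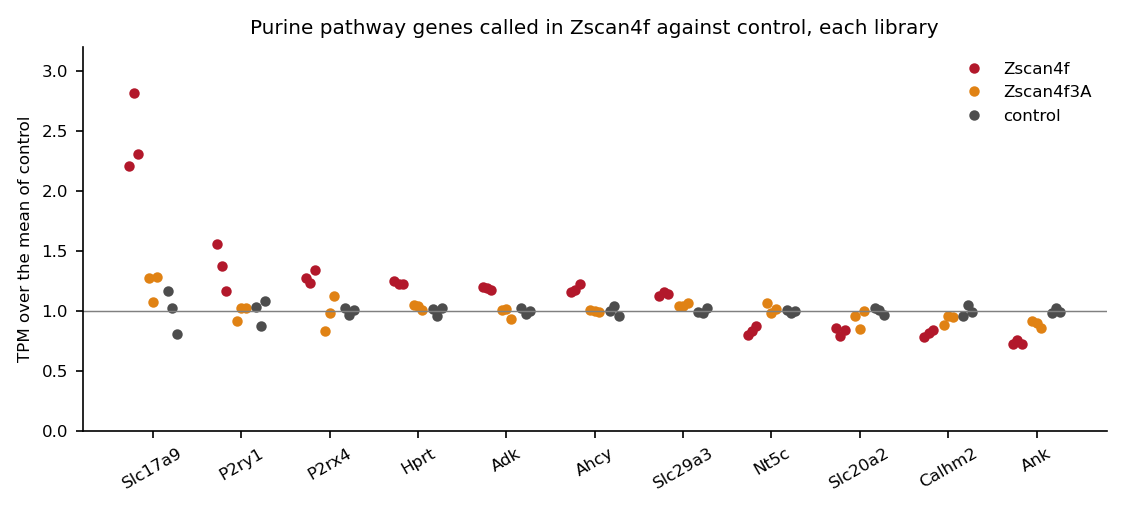
TPM of each of the 11 purine pathway genes called in Zscan4f against control, in every library, divided by the mean of the control libraries (grey line at 1). Slc17a9 lies highest, with all 3 Zscan4f libraries above the Zscan4f3A and control libraries, and Ank lies lowest.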

How the data were processed

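Genes and lists were chosen with earlier results of these data known. Per the submitters' processing notes, HISAT2 2.1.0 and StringTie were used, with the StringTie version, genome build and annotation not given in the sources used here. Per the file headers, the authors deposited TPM, FPKM and coverage per gene. TPM was made by the authors per kilobase and scaled to 1000000 in each library. FPKM was made by the authors per kilobase and scaled by the library's fragments. The coverage deposited is mean read depth, not corrected for depth. Of 54986 gene IDs, 54079 were found in GENCODE M21 and 97.7% of these had identical GRCm38 coordinates. Aligned sequence was taken as the commonest ratio of coverage to FPKM.

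The 15837 genes that reached 1 TPM in 3 or more of the 9 libraries were fitted as log2(TPM + 1) with limma 3.58.1 (R 4.3.3; group means, trend), which understates changes of low genes. Tests were two-sided, with Benjamini-Hochberg adjustment over all genes tested in a comparison and calls at an adjusted p under 0.05. The code was tested on simulated data. A full-length transcript held at least 75% of the longest coding sequence, and its highest share assumes that all others are as short as the shortest annotated one. Values were tabulated with pandas 2.3.3 and numpy 2.4.6 and drawn with matplotlib 3.10.9 in Python 3.11.15.

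Genes named were the 9 members, each pathway gene called in a comparison with counts per list, the nearest tested neighbours of each member, the 3 most correlated genes per member, and Zscan4f. Entpd3 and Acpp were named after their values were seen. Alternatives changed the pseudocount (0.1), the filter (none, or 5 TPM), the unit (FPKM), the scaling (quantile, or median of ratios), the libraries fitted (only the groups compared, or each library left out), the trend (none), the block (replicate number) and the genes of each step. Coverage in place of TPM and sums without Entpd1 were chosen after seeing the data.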

Additional observations from a re-analysis of the deposited data

How the results depend on the processing

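The direction of the ATP-cleaving sum in Zscan4f against control turned without Entpd1 (8.64 TPM in Zscan4f libraries, 13.5 in control libraries) and by coverage (2.86 in Zscan4f libraries, 3.82 in control libraries). With 1 library left out, log2 fold changes near 0 changed sign in Zscan4f against control for Entpd2 (0.028 without control replicate 2), Ada (-0.010 without control replicate 3) and Adora2b (0.041 without Zscan4f replicate 3, 0.079 without control replicate 3), and likewise in Zscan4f3A against control for Entpd2, Ada and Slc29a1 (the last also by coverage) and in Zscan4f against Zscan4f3A for Ada. For Zscan4f against control, 11 pathway genes were called, with a range of 7 to 11 when 1 library was left out: 7 without Zscan4f replicate 2, without control replicate 1 or without control replicate 2. Genes called in Zscan4f3A against control numbered 5, against 3 with no filter and 1 to 16 with 1 library left out (10 without Zscan4f replicate 3, 16 without Zscan4f3A replicate 3, and 8, 9 and 1 without control replicates 1, 2 and 3). In Zscan4f against Zscan4f3A they numbered 2395, and 1548 to 2173 with 1 library left out, the lowest without Zscan4f replicate 3. The log2 difference in the AMP-cleaving over ATP-cleaving sum was -2.56 in Zscan4f against control and became -3.18 without Enpp1, -1.54 without Entpd1 and -1.80 by coverage. The same values were -0.41, -0.55, -0.32 and -0.29 in Zscan4f3A against control, and -2.15, -2.63, -1.22 and -1.51 in Zscan4f against Zscan4f3A. For Entpd1 in Zscan4f against control the log2 fold change was 2.07 with a pseudocount of 0.1, 1.48 with FPKM and 0.80 with coverage, where the pseudocount weighs more on its low values. No pairing by replicate number was evident: same-numbered libraries correlated at -0.079 to 0.053 in their deviations, and libraries of different number at -0.048 to 0.054. With 3 libraries a group this does not show that the libraries were unpaired. With the replicate number as a block, 2504 genes were called in Zscan4f against control, 1 in Zscan4f3A against control and 1883 in Zscan4f against Zscan4f3A, and Slc29a3 (adjusted p = 0.0541) and P2ry1 (0.0757) lost their calls against control and P2ry1 (0.0823) its call against Zscan4f3A. The mean read depth was at most 0.0837 for Alpl and 0.286 for Adora1. With no counts and 3 libraries a group, the number of reads behind these low values is unknown, and small differences in Ada, Adora2b and Entpd2 were not detectable.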
